A study of Mus musculus with 6 samples.

Results

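Hsd11b1, the enzyme that activates glucocorticoids inside cells, was examined in mouse bone together with the glucocorticoid receptor Nr3c1 and 8 genes that the receptor is known to induce: Fkbp5, Tsc22d3, Sgk1, Pdk4, Ddit4, Zbtb16, Cdkn1a and Cebpd. These 10 genes were picked by name from the 54532 genes of an RNA-seq table, and they were picked because Hsd11b1 and Fkbp5 were higher in knockout bone. Their differences between genotypes are therefore a description. No p-value is given for them, and where the text says which of them passed the threshold of the fit over all genes, that too describes and is no test of the choice. All 10 were among the 13619 genes with a mean of at least 1 FPKM (a read level corrected for exon length and library size) over the 6 libraries.

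One genotype was MIR29cb2-/- mice, which lack the microRNA cluster of miR-29b-2 and miR-29c (3 libraries), and the other was WT mice (3 libraries). Both were female C57BL/6J mice aged 16 weeks. Bone was frozen on dry ice and extracted with Trizol, and total RNA went into the libraries. No label names the bone, says whether marrow was removed or ties each library to 1 animal, so the spread between libraries may be partly technical. In whole bone, fewer cells of a type and less RNA per cell cannot be told apart.

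Glucocorticoids such as corticosterone, the main one in mice, act through a receptor that waits in the cytoplasm on Hsp90 chaperones and moves to the nucleus once it binds the hormone. Hsd11b1 makes corticosterone from its inactive keto form in the endoplasmic reticulum, while Hsd11b2 does the reverse, so the local hormone level depends on both enzymes as well as on the adrenal gland. In bone, an excess of glucocorticoids is known to lower the function of osteoblasts and bone mass, and the receptor's target genes are commonly read as its footprint in a tissue.

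Both microRNAs of the deleted cluster carry the same seed, the bases 2 to 8 that pair with messenger RNAs. Their mature RefSeq sequences (GRCm38.p6, chromosome 1, plus strand) are shown with the seed in capitals, because sites matching it were searched for in the 10 genes.
miR-29b-3p: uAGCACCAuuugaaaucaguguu
miR-29c-3p: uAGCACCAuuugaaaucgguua
The matching site in a messenger RNA is TGGTGCT, or TGGTGCTA for the longer form. It was found in the longest annotated 3′ UTR of 4 of the 10 genes, Tsc22d3, Sgk1, Cdkn1a and Cebpd, and the longer form in Sgk1 alone of them. Of 11667 genes with a 3′ UTR and a mean of at least 1 FPKM, 15.4% held the shorter form and 3.09% the longer one. Hsd11b1 and Fkbp5 held neither. Other forms of site, other parts of the messenger RNA and other transcripts were not searched, so direct binding is not settled by these matches. On chromosome 6, outside the deleted cluster, Mir29a gives miR-29a-3p with the same seed, and Mir29b-1 gives an identical miR-29b-3p. The seed and miR-29b-3p therefore need not be absent from knockout bone.

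The libraries gave 16727111 to 20118034 recovered reads each. The host transcript of the cluster, A330023F24Rik, stood at 2.51, 3.25 and 4.08 FPKM in the knockout libraries, against 0.197, 0.153 and 0.136 FPKM in the wild-type libraries, and Mir29b-2 and Mir29c were listed at 0 in all 6. Short microRNA genes are poorly caught by such libraries, and the deleted interval is not given in the sources used here, so these values do not check the deletion. Knockout replicate 1 and wild-type replicate 2 stood apart from the other 4 libraries, with FPKM totals of 487102 and 489576, against 355787 to 404994. In these same libraries longer genes tended to lie below their genotype mean (rho between deviation and exon length of -0.45 and -0.42 across genes, against 0.18 to 0.41 in the others). The osteoblast products Bglap and Col1a1 were present in every library, at 237 ± 154 and 222 ± 105 FPKM in knockout bone and at 682 ± 296 and 469 ± 87.2 FPKM in wild-type bone (SD, n = 3 each).

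To see whether the activating enzyme differed, Hsd11b1 was taken first. Hsd11b1 (ENSMUSG00000016194; mm10 chromosome 1, 193221634 to 193264075, minus strand) had 20.8, 15.3 and 17.6 FPKM in the knockout libraries, against 8.55, 10.8 and 10.5 FPKM in the wild-type libraries. The lowest knockout library lay above the highest wild-type library. The means were 17.9 ± 2.74 FPKM in knockout bone and 9.97 ± 1.23 FPKM in wild-type bone (SD, n = 3 each), a ratio of 1.80 and a log2(FPKM + 1) difference of 0.78 (SE 0.15). The knockout values came from 1465, 1135 and 1295 reads and the wild-type values from 749, 899 and 806 reads. It ranked 238 of 13619 genes from the most positive difference. Hsd11b1 lies 1.71 Mb from the start of the deleted cluster's host transcript on the same chromosome.

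The promoter of Hsd11b1 was read because the receptor can act at promoters. Its 300 bases from RefSeq (GRCm38.p6, chr1:193242311-193242610, minus strand, 250 bases before to 50 after the start) hold neither the half-site AGAACA on either strand nor the 2 palindromes described below, so nothing is in capitals.
Hsd11b1 promoter: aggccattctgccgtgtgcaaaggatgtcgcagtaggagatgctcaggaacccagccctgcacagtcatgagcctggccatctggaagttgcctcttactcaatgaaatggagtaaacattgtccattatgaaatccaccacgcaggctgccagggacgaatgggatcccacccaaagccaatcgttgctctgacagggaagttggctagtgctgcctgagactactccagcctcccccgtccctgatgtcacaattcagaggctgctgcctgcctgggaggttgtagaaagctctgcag
The absence of these letters concerns this window alone.

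Enzymes and carriers that set the hormone level showed no difference past the threshold. The list held 15 genes of glucocorticoid synthesis, activation, inactivation and transport, with the mineralocorticoid receptor Nr3c2 among them. Of the 15, 6 reached the expression filter and 0 of the 6 passed limma's test (Benjamini-Hochberg adjusted p under 0.05 over all 13619 genes). At an unadjusted p under 0.05 there was 1, Abcb1a (lower). With limma array weights 2 passed, Por and Abcb1a, both lower, and with voom on recovered reads 0. Array weights called 3354 of all 13619 genes. H6pd, which supplies the NADPH that Hsd11b1 uses, stood at 11.3 ± 2.67 FPKM in knockout bone and 10.01 ± 2.11 FPKM in wild-type bone (SD, n = 3 each). The cytochrome P450 reductase Por had 17.04 ± 2.80 FPKM in knockout bone and 18.7 ± 3.88 FPKM in wild-type bone, and the efflux pump Abcb1b had 1.40 ± 0.228 FPKM in knockout bone and 1.12 ± 0.260 FPKM in wild-type bone. The opposing enzyme Hsd11b2, named after its values were seen, was below the filter with 28 reads over the 3 knockout libraries and 15 over the 3 wild-type libraries. Cyp11b1, which makes corticosterone in the adrenal gland and was also named after its values were seen, was listed at 0 in all 6 libraries. Nr3c2, named after its values were seen too, was below the filter and so not tested. It had 109 reads over the 3 knockout libraries and 234 over the 3 wild-type libraries, and its FPKM was lower in each knockout library.

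The receptor itself did not separate the genotypes. Nr3c1 (ENSMUSG00000024431; mm10 chromosome 18, 39410545 to 39519421, minus strand) had 12.8, 17.4 and 17.7 FPKM in the knockout libraries, against 18.4, 14.5 and 17.7 FPKM in the wild-type libraries. The 2 lowest values of the 6 belong to knockout replicate 1 and wild-type replicate 2, the libraries that stood apart, and the groups overlapped. The difference was -0.08 (SE 0.16) on the log2(FPKM + 1) scale, and it lay between -0.18 and 0.06 over 17 alternative settings.

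Among the proteins around the receptor, 1 Hsp90 gene rose. Of 21 listed chaperones and coregulators 20 were tested, and 1 rose and 0 fell, a share of 5.0% against 5.16% of all genes. It was Hsp90aa1, the inducible Hsp90 that folds the receptor, with 240 ± 17.6 FPKM in knockout bone and 143 ± 8.62 FPKM in wild-type bone (SD, n = 3 each; log2 change 0.74, limma adjusted p = 0.0368). It lost its call when any 1 of the 6 libraries was left out, while its log2 change stayed between 0.68 and 0.79 over 18 alternative settings. Hsp90ab1 had 432 ± 53.9 FPKM in knockout bone and 339 ± 34.2 FPKM in wild-type bone, and the chaperone Hspa8 had 428 ± 61.0 FPKM in knockout bone and 334 ± 76.2 FPKM in wild-type bone. The cochaperone Bag1 had 113 ± 7.38 FPKM in knockout bone and 122 ± 25.6 FPKM in wild-type bone, and none of the 3 passed. The median log2 change of the list was 0.12, beside 0.06 for all genes tested.

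**Figure D1:**
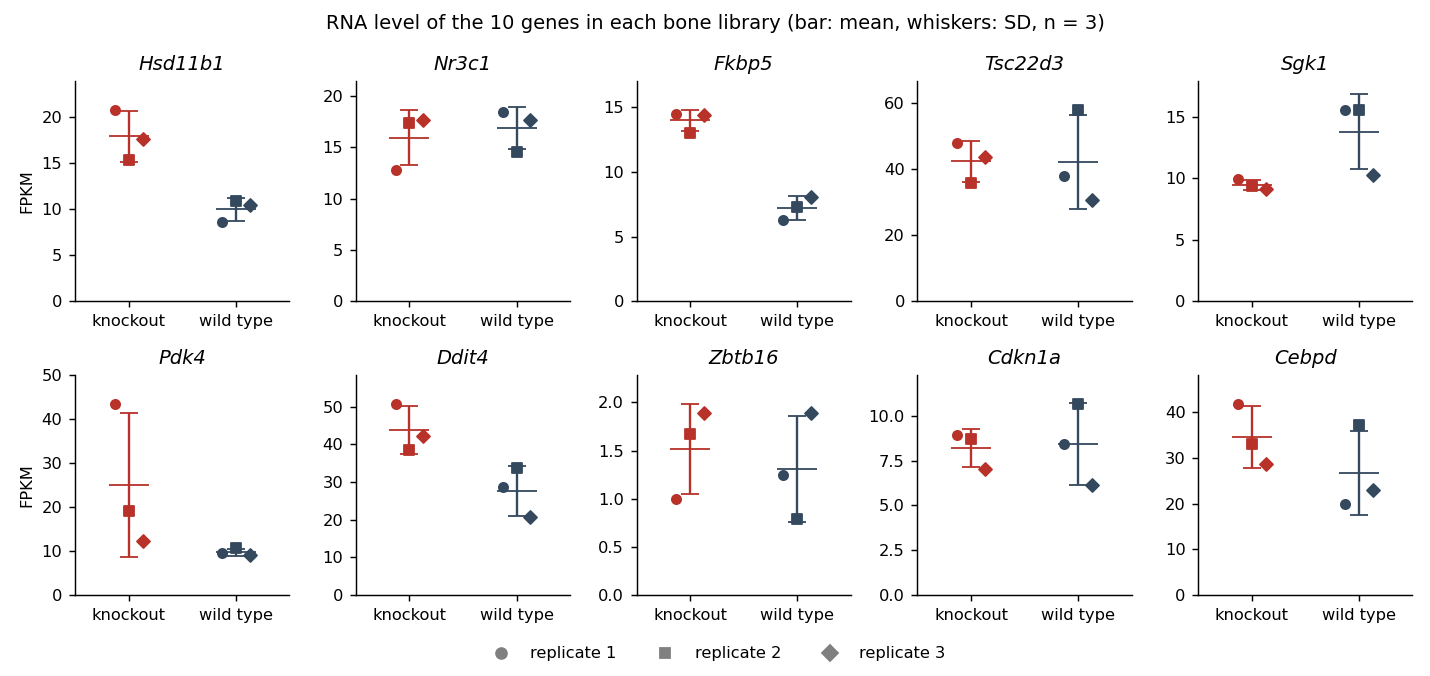
FPKM of the 10 genes in each of the 3 knockout and 3 wild-type libraries, one panel per gene with its own axis from 0; symbols mark the replicate number, and bars and whiskers the mean and SD. The knockout libraries lie above all wild-type libraries for Hsd11b1, Fkbp5, Pdk4 and Ddit4, below them for Sgk1, and overlap with them for the other 5 genes.

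Fkbp5 encodes a cochaperone that binds Hsp90 and lowers the receptor's affinity for its hormone, and the receptor induces it, which closes a feedback loop. Fkbp5 (ENSMUSG00000024222; mm10 chromosome 17, 28399094 to 28517527, minus strand) had 14.5, 13.01 and 14.4 FPKM in the knockout libraries, against 6.25, 7.31 and 8.05 FPKM in the wild-type libraries. The 3 knockout libraries lay close together and all above the wild-type libraries. The means were 14.0 ± 0.825 FPKM in knockout bone and 7.20 ± 0.906 FPKM in wild-type bone (SD, n = 3 each), a ratio of 1.94 and a log2(FPKM + 1) difference of 0.87 (SE 0.12). It stayed between 0.72 and 0.95 over 18 alternative settings. The related Fkbp4, which lets the receptor move to the nucleus and was named after its values were seen, missed the threshold at a log2 change of 0.52 (limma adjusted p = 0.133).

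Of the 10 genes, 2 passed the limma threshold, Hsd11b1 and Fkbp5, both higher, while 5.16% of all genes tested passed in either direction, 1.34% as higher and 3.82% as lower. Those 2 are the genes for which the set was chosen, so nothing is read from this count, nor from the counts and medians over all 10 genes below. Without wild-type replicate 1, knockout replicate 1 or knockout replicate 2 the count was 0, and without wild-type replicate 2, wild-type replicate 3 or knockout replicate 3 it was 1, Fkbp5. The libraries of the 2 genotypes did not overlap in 5 of the 10 genes, 4 higher and 1 lower, and in 28.4% of all genes tested, 14.7% as higher and 13.7% as lower. The median log2 change was 0.26 over the 10 genes and 0.06 over all genes tested. Over the 8 genes other than Hsd11b1 and Fkbp5 the median was 0.09, and 3 did not overlap, 2 higher (Pdk4 and Ddit4) and 1 lower (Sgk1).

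Of the 8 induced genes, Pdk4, Ddit4 and Fkbp5 were higher in every knockout library than in any wild-type library. Pdk4 encodes a kinase that shuts pyruvate dehydrogenase and so spares glucose, and it also answers to fasting. Pdk4 (ENSMUSG00000019577; mm10 chromosome 6, 5483351 to 5496309, minus strand) had 43.5, 19.2 and 12.3 FPKM in the knockout libraries, against 9.68, 10.6 and 9.04 FPKM in the wild-type libraries. The knockout libraries spread over 3.54-fold and the wild-type libraries over 1.17-fold, and 1 knockout library, replicate 1, carried much of the difference. The log2(FPKM + 1) difference of 1.09 (SE 0.40) was 0.61 without that library and 1.48 without knockout replicate 3.

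Ddit4, also called REDD1, restrains the growth kinase mTORC1 and is induced by low oxygen and stress as well as by glucocorticoids. Ddit4 (ENSMUSG00000020108; mm10 chromosome 10, 59949669 to 59951834, minus strand) had 50.8, 38.5 and 42.2 FPKM in the knockout libraries, against 28.7, 33.6 and 20.6 FPKM in the wild-type libraries. The means were 43.8 ± 6.30 FPKM in knockout bone and 27.6 ± 6.55 FPKM in wild-type bone (SD, n = 3 each), and the log2(FPKM + 1) difference was 0.66 (SE 0.20). Over the 18 alternative settings it stayed between 0.48 and 0.81.

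Cebpd, a transcription factor of fat cell and myeloid differentiation, leaned the same way with overlapping groups. Cebpd (ENSMUSG00000071637; mm10 chromosome 16, 15887286 to 15891031, plus strand) had 41.9, 33.0 and 28.7 FPKM in the knockout libraries, against 19.999, 37.3 and 23.0 FPKM in the wild-type libraries. Its highest wild-type value came from replicate 2, and the log2(FPKM + 1) difference of 0.39 (SE 0.25) was 0.65 without that library. It was 0.21 without wild-type replicate 1 and 0.24 without knockout replicate 1, so its size depended on single libraries.

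Sgk1, a kinase that promotes sodium retention and cell survival and is among the classical early targets of the receptor, stood out on the other side. Sgk1 (ENSMUSG00000019970; mm10 chromosome 10, 21882184 to 21999903, plus strand) had 9.93, 9.38 and 9.10 FPKM in the knockout libraries, against 15.5, 15.6 and 10.3 FPKM in the wild-type libraries. Every knockout library lay below every wild-type library, with the smallest gap to wild-type replicate 3. The means were 9.47 ± 0.422 FPKM in knockout bone and 13.8 ± 3.06 FPKM in wild-type bone (SD, n = 3 each), and the log2(FPKM + 1) difference was -0.48 (SE 0.17). Over 18 alternative settings it ran from -0.66, without wild-type replicate 3, to -0.24, with limma array weights, and it was -0.38 without wild-type replicate 1 or 2.

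Among the genes of the set with a RefSeq promoter at hand, Sgk1 also had the fullest receptor site. The classical site is a palindrome, the half-site AGAACA followed after any 3 bases by its reverse complement TGTTCT, and a looser form is GNACA followed after any 3 bases by TGTNC. Among 32544 distinct mouse promoters of 300 bases, 18.9% held the half-site on either strand, 0.476% the looser palindrome and 3 the full one, which counts within both other classes. The RefSeq promoters at hand included 15 for 7 of the 10 genes and none for Nr3c1, Zbtb16 and Cebpd, which were not searched. The half-site was in 4 of these 15, namely 3 of the 6 of Sgk1 and 1 of the 3 of Tsc22d3, and both palindromes were in 1, of Sgk1. That promoter is shown with half-sites and palindrome in capitals (GRCm38.p6, chr10:21993640-21993939, plus strand).
Sgk1 promoter: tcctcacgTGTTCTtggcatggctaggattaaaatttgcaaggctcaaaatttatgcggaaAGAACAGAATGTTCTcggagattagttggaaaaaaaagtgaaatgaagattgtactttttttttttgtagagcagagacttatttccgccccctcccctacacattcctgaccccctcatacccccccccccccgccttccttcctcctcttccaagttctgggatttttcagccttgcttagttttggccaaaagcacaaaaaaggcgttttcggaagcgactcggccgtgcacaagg
The palindrome begins 189 bases before the start of the transcript, and a separate half-site 242 bases before it. A match is a string of letters, and binding was not measured.

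The 3′ UTR sites for miR-29 in the 4 genes that hold one are shown with the match in capitals, since microRNAs usually lower the RNA of genes they bind.
Sgk1: tccttccaacgTGGTGCTAgctccag
Cebpd: aaaggatttccTGGTGCTtgccccag
Tsc22d3: ccaccattcatTGGTGCTgactacat
Cdkn1a: gaccccaaagcTGGTGCTcaataaat
The log2(FPKM + 1) differences of these 4 genes were -0.48 for Sgk1, which holds the longer match, 0.39 for Cebpd, 0.05 for Tsc22d3 and -0.01 for Cdkn1a. The 4 genes higher without overlap hold no match in the 3′ UTR searched.

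Tsc22d3, also called GILZ, carries much of the anti-inflammatory action of glucocorticoids and was among the most abundant genes of the set. Tsc22d3 (ENSMUSG00000031431; mm10 chromosome X, 140539528 to 140600659, minus strand) had 48.0, 35.7 and 43.6 FPKM in the knockout libraries, against 37.9, 58.0 and 30.7 FPKM in the wild-type libraries. The wild-type libraries bracketed the knockout libraries, with replicate 2 at the top. The means were 42.4 ± 6.22 FPKM in knockout bone and 42.2 ± 14.1 FPKM in wild-type bone (SD, n = 3 each), and the log2(FPKM + 1) difference of 0.05 had an SE of 0.24, so a moderate change in either direction was not detectable.

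Cdkn1a, the cell-cycle inhibitor p21, and Zbtb16, a transcription factor also called PLZF, overlapped as well. Cdkn1a (ENSMUSG00000023067; mm10 chromosome 17, 29090976 to 29100727, plus strand) had 8.95, 8.68 and 7.01 FPKM in the knockout libraries, against 8.44, 10.7 and 6.13 FPKM in the wild-type libraries. Zbtb16 (ENSMUSG00000066687; mm10 chromosome 9, 48654297 to 48836222, minus strand) was the least abundant, with 0.993, 1.67 and 1.89 FPKM in the knockout libraries, against 1.25, 0.795 and 1.89 FPKM in the wild-type libraries. Both genotypes spread about as widely for Zbtb16, on 82 to 180 reads per library. The log2(FPKM + 1) differences were -0.01 (SE 0.20) for Cdkn1a and 0.13 (SE 0.23) for Zbtb16.

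**Figure D2:**
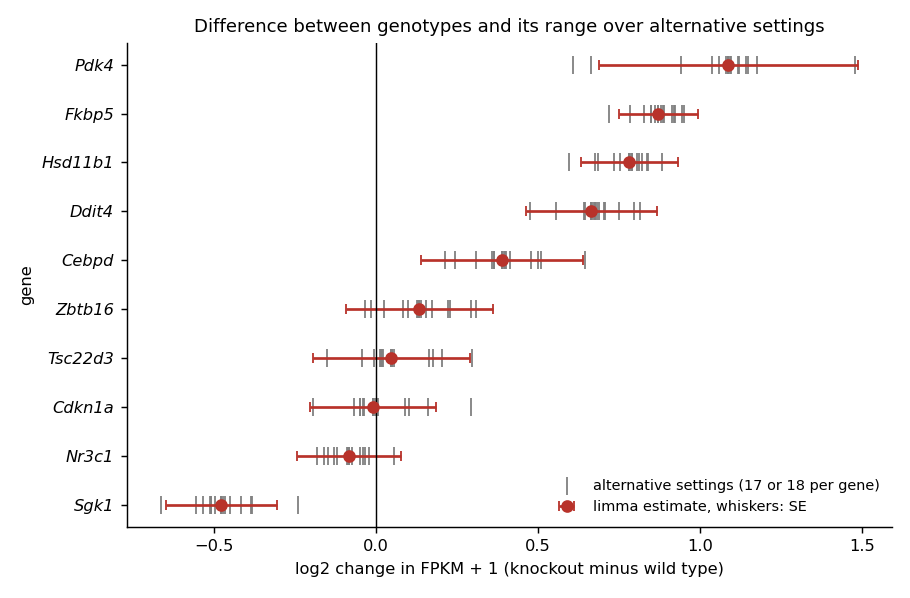
Log2 change in FPKM + 1 (knockout minus wild type) of the 10 genes, as the limma estimate with its SE (red) and under each alternative setting (grey ticks). Pdk4, Fkbp5, Hsd11b1, Ddit4 and Cebpd stay above 0 and Sgk1 below 0 under every setting drawn, while Tsc22d3 (-0.15 to 0.30), Cdkn1a (-0.20 to 0.29), Zbtb16 (-0.03 to 0.31) and Nr3c1 (-0.18 to 0.06) lie on both sides of 0.

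By level per exon length, the order of the 10 genes differed between the genotypes. In knockout bone Ddit4 (43.8 FPKM) and Tsc22d3 (42.4 FPKM) led, followed by Cebpd, Pdk4, Hsd11b1, Nr3c1, Fkbp5, Sgk1, Cdkn1a and Zbtb16. In wild-type bone Tsc22d3 (42.2 FPKM) led, followed by Ddit4, Cebpd, Nr3c1, Sgk1, Hsd11b1, Pdk4, Cdkn1a, Fkbp5 and Zbtb16. Neighbours in the order overlapped over libraries except Fkbp5 and Sgk1, Sgk1 and Cdkn1a, and Cdkn1a and Zbtb16 in knockout bone, and Cebpd and Nr3c1, and Fkbp5 and Zbtb16 in wild-type bone. Hsd11b1 stood 5th in knockout bone and 6th in wild-type bone.

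Within a genotype, several of the genes moved with the libraries that stood apart. Knockout replicate 1 held the highest value of its genotype for 8 of the 10 genes, all but Nr3c1 and Zbtb16, for which it was the lowest. Wild-type replicate 2 held the highest value for 7 of the 10, and the lowest again for Nr3c1 and Zbtb16. The largest deviations in wild-type replicate 2 were those of Cebpd (0.51 above its genotype mean on the log2 scale) and Tsc22d3 (0.50). Hsd11b1 and Fkbp5 deviated by at most 0.21 and 0.17 in any library. The part of library composition in these deviations was not tested, and with the trend on exon length removed the differences were 0.75 for Hsd11b1 and 0.83 for Fkbp5. Without both libraries that stood apart they were 0.73 and 0.86, and neither passed the limma threshold.

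**Figure D3:**
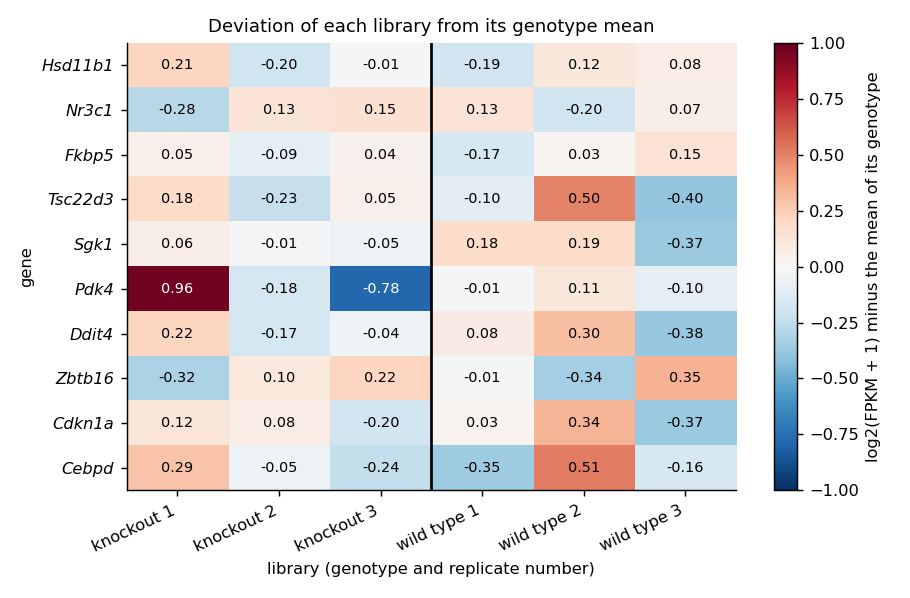
Deviation of each library's log2(FPKM + 1) from the mean of its genotype for the 10 genes, knockout libraries left of the line and wild-type libraries right of it. Knockout replicate 1 and wild-type replicate 2 are positive for most genes and negative for Nr3c1 and Zbtb16, and the widest range is that of Pdk4 in knockout bone (0.96 to -0.78).

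The genes closest in pattern to Hsd11b1 and Fkbp5 were ranked by the mean absolute difference of centred log2(FPKM + 1) over the 6 libraries, among 7648 named genes with a mean of at least 5 FPKM. For Hsd11b1 they were Acot7, an acyl-CoA thioesterase (0.036), Rpn1, an oligosaccharyltransferase subunit of the endoplasmic reticulum (0.068), and the glycolytic enzyme Eno1 (0.070). For Fkbp5 they were the creatine synthesis enzyme Gatm (0.043), the potassium channel subunit Kcnab2 (0.052) and the transcription factor Tfec (0.054). The distance between Hsd11b1 and Fkbp5 themselves was 0.094. All 6 neighbours stood higher in knockout bone, as the measure requires of genes like these.

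To see whether other targets of the receptor differed, 39 genes widely reported as induced by glucocorticoids were taken, of which 38 were tested. Of the 38, 4 rose and 1 fell, a share of 13.2% against 5.16% of all genes, while the median log2 change was -0.04 beside 0.06 for all genes. Fbxo32, a muscle ubiquitin ligase also called atrogin-1, had 14.7, 14.8 and 16.2 FPKM in the knockout libraries, against 4.70, 5.28 and 4.65 FPKM in the wild-type libraries (log2 change 1.47, limma adjusted p = 0.00349). It passed under all 18 alternative settings, the only called gene of this list that did. Its partner ligase Trim63, also called MuRF1, had 35.8 ± 12.98 FPKM in knockout bone and 9.34 ± 2.44 FPKM in wild-type bone (SD, n = 3 each; log2 change 1.80, limma adjusted p = 0.0211).

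The decoy interleukin receptor Il1r2 rose to 29.1 ± 1.12 FPKM in knockout bone, against 12.5 ± 3.36 FPKM in wild-type bone (log2 change 1.19, limma adjusted p = 0.0269). Cebpb, a relative of Cebpd, rose to 46.8 ± 9.75 FPKM in knockout bone, against 18.5 ± 8.11 FPKM in wild-type bone (log2 change 1.35, limma adjusted p = 0.0495). The Cebpb call held under 5 of 18 alternative settings. It was lost with a pseudocount of 0.1 or 0.5, with either other scaling, with no trend, with either other filter, and without any 1 library but wild-type replicate 2, while the log2 change stayed between 1.14 and 1.83. Calls held under 12 of 18 settings for Il1r2, 13 of 18 for Trim63 and 14 of 17 for Pck1. Pck1, an enzyme of glucose and glycerol synthesis that is abundant in fat, fell to 0.143 ± 0.0385 FPKM in knockout bone, against 3.67 ± 1.61 FPKM in wild-type bone (log2 change -1.97, limma adjusted p = 0.0143). Of the most abundant others, Lcn2 had a log2 change of 0.90, the lipid-binding anti-inflammatory Anxa1 0.78 and Txnip -0.31, and none passed. The count of 5 was 2 without wild-type replicate 1, 1 without knockout replicate 2, and 3 without wild-type replicate 3, knockout replicate 1 or knockout replicate 3. The list was chosen with earlier results of these data known, so the count is not independent support.

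Of the classical early targets outside the set, 3 that were named after their values were seen gave no common direction. Per1, a clock gene with a receptor site, had 11.6, 14.4 and 20.4 FPKM in the knockout libraries, against 13.9, 11.8 and 8.98 FPKM in the wild-type libraries. The phosphatase Dusp1 had 20.3, 15.4 and 20.4 FPKM in the knockout libraries, against 31.4, 26.3 and 21.7 FPKM in the wild-type libraries. Klf9 had 6.75, 11.1 and 15.2 FPKM in the knockout libraries, against 16.7, 10.1 and 13.6 FPKM in the wild-type libraries. Per1 and Klf9 overlapped between genotypes and Dusp1 was lower in each knockout library, and none of the 3 passed. With limma array weights, which called 3354 of 13619 genes, Per1 and Dusp1 were called.

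Genes that glucocorticoids repress did not all move the same way. Of 22 listed 13 were tested, and 2 fell and 0 rose, a share of 15.4% against 5.16% of all genes (3.82% lower). The median log2 change was -0.24, beside 0.06 for all genes tested, with 9 negative and 4 positive. Without overlap between genotypes 5 were lower and 2 higher, beside 13.7% and 14.7% of all genes. The cytokine Il1b fell to 6.40 ± 2.96 FPKM in knockout bone, against 17.6 ± 2.18 FPKM in wild-type bone (SD, n = 3 each; log2 change -1.39, limma adjusted p = 0.0343). The chemokine Cxcl10, which interferon also induces, fell to 0.552 ± 0.185 FPKM in knockout bone, against 2.31 ± 0.400 FPKM in wild-type bone (log2 change -1.09, limma adjusted p = 0.02). Mmp13, Mmp9 and Vcam1 had log2 changes of -1.44, -0.26 and 0.12 and did not pass. The count was 0 without wild-type replicate 1, wild-type replicate 2, knockout replicate 1 or knockout replicate 2. Without wild-type replicate 3 it was again 2, of other genes, Jun and Fos. The cytokine Tnf, named after its values were seen, was called higher when the values were scaled to TPM (where Il1b lost its call), with the exon length trend removed, with array weights and with voom. It had 8.13, 5.85 and 6.45 FPKM in the knockout libraries, against 2.103, 3.81 and 3.79 FPKM in the wild-type libraries (log2 change 0.90, limma adjusted p = 0.0561).

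Among bone genes that glucocorticoids are reported to change, 5 fell and 0 rose. All 16 tested of 19 listed had a negative log2 change, as had 5573 of all 13619 genes tested. The median was -0.86, and 5 passed, a share of 31.2% against 5.16% of all genes (3.82% lower). The list was not split by the direction in which glucocorticoids are reported to change each gene, so the common direction is not read as a response. Alpl, the bone alkaline phosphatase, had 8.79 ± 2.65 FPKM in knockout bone and 30.9 ± 11.02 FPKM in wild-type bone (SD, n = 3 each; limma adjusted p = 0.0293). The osteoblast factor Sp7 (log2 change -1.33), the Wnt inhibitor Wif1 (-1.17), the decoy receptor Tnfrsf11b (-1.22) and the growth factor Igf1 (-0.52) also fell, with limma adjusted p-values of 0.0472, 0.0293, 0.0457 and 0.0412. The count was 4 without wild-type replicate 3, 2 without knockout replicate 1 and 0 without any other single library or with no filter on low values. Bglap, Bglap2 and Col1a1 had log2 changes of -1.62, -1.53 and -1.16 and did not pass, and Bglap and Bglap2 are near copies whose reads may be split. Of the list, 4 genes (Alpl, Sp7, Bglap and Col1a1) are also among the 8 osteoblast and osteocyte markers below.

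Because Pdk4, Ddit4 and Cdkn1a also answer to other signals, 2 further lists were counted. Of 14 p53 targets 11 were tested and 0 passed, with a median log2 change of 0.08, and the log2 changes of Phlda3, Ccng1 and Bax were -0.88, -0.39 and 0.26. At an unadjusted p under 0.05 there were 3 of the 11, limma array weights called 5 and voom on recovered reads 1. Over all genes, array weights called 3354 of 13619 and voom 782 of 12950. Of 20 genes induced by FOXO factors, ATF4 or low oxygen 19 were tested, and 1 rose and 0 fell, a share of 5.3% against 5.16% of all genes. It was Egln3, a prolyl hydroxylase induced by low oxygen, with 15.5 ± 2.0 FPKM in knockout bone and 6.21 ± 1.98 FPKM in wild-type bone (SD, n = 3 each; log2 change 1.22, limma adjusted p = 0.0288). It lost its call without wild-type replicate 1 or 3 or any 1 knockout library. Atf4 (0.19), Ucp2 (-0.29) and Bnip3l (-0.06) did not pass.

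**Figure D4:**
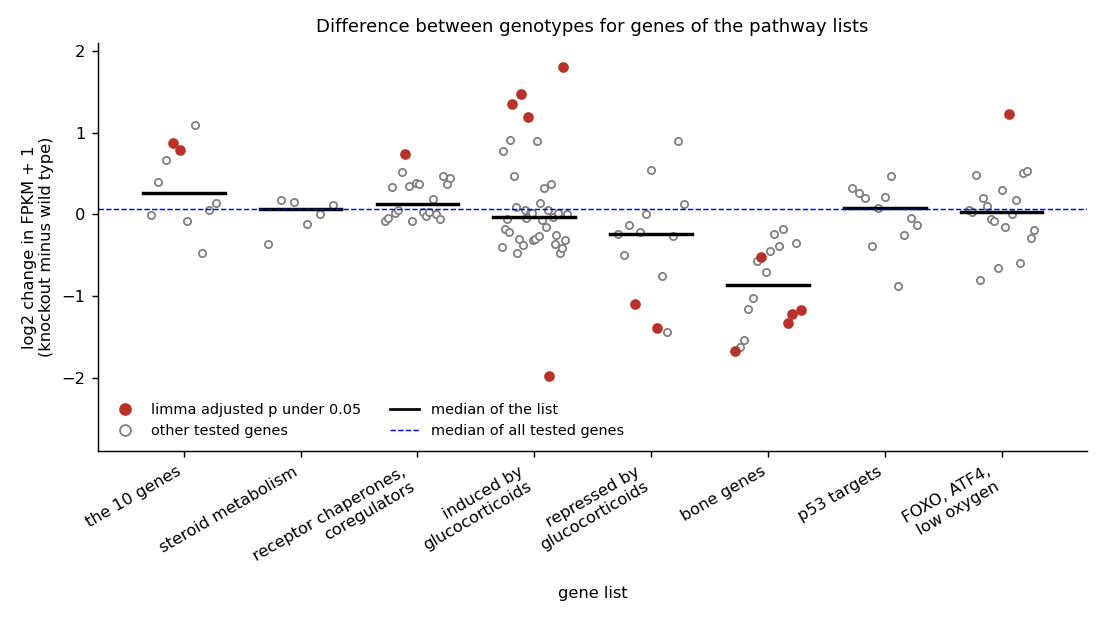
Log2 change in FPKM + 1 (knockout minus wild type) of each tested gene of the 10-gene set and of 7 pathway lists; filled points passed limma's adjusted threshold, black lines are list medians and the dashed line is the median of all genes tested. The bone list lies lowest (median -0.86), and the induced list has its 4 risers above 1 while its median is near 0 (-0.04).

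Markers of several cell types differed between genotypes, and the values below stand beside every difference above. As in the counts above, rose and fell mean past the limma threshold. Of all genes tested 1.34% rose and 3.82% fell, which stands beside each count of markers below. All 7 tested adipocyte markers of 8 listed fell, with a summed level of 66.6 to 143 FPKM in the knockout libraries and 498 to 770 FPKM in the wild-type libraries, and the fat protein Cfd had 20.5 ± 10.7 FPKM in knockout bone and 390 ± 106 FPKM in wild-type bone (SD, n = 3 each; limma adjusted p = 0.00712). Of 8 chondrocyte markers 7 fell (7.38 to 44.2 FPKM summed in knockout libraries, 270 to 392 FPKM in wild-type libraries), with Col2a1 at 9.92 ± 4.73 FPKM in knockout bone and 96.4 ± 13.4 FPKM in wild-type bone. Of 8 osteoblast and osteocyte markers 5 fell (465 to 964 FPKM in knockout libraries, 1120 to 1948 FPKM in wild-type libraries), Smpd3 (log2 change -1.95) and Phex (-1.09) among them. Of 6 osteoclast markers 1 fell, Atp6v0d2 (-1.50), and the sums were 391 to 605 FPKM in knockout libraries and 879 to 1567 FPKM in wild-type libraries. All 6 were lower in each knockout library than in any wild-type library, beside 13.7% of all genes. Which cells gave the reads of Hsd11b1 here was not tested.

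Of 8 skeletal muscle markers 4 fell, Casq1 (log2 change -1.94), Myh2 (-1.53) and Mylpf (-1.19) among them, and the sum of all 8 was 1921 to 2969 FPKM in knockout libraries and 3878 to 6720 FPKM in wild-type libraries. Among the 8, 7 were lower without overlap between genotypes, beside 13.7% of all genes. Fbxo32, Trim63 and Pdk4 are abundant in muscle, and which cells gave their reads here was not tested. Of 7 stromal and fibroblast markers 4 fell (176 to 194 FPKM in knockout libraries, 245 to 291 FPKM in wild-type libraries), and of 4 endothelial markers 2 fell, Cdh5 and Kdr (28.6 to 31.1 FPKM summed in knockout libraries, 42.8 to 46.2 FPKM in wild-type libraries). Both endothelial calls were lost when the values were scaled to TPM and with no filter on low values. All 4 endothelial markers and 5 of the 7 stromal and fibroblast markers were lower without overlap, beside 13.7% of all genes.

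Among blood cells, 3 of 9 neutrophil markers rose, the granule proteases Ctsg (log2 change 1.63) and Prtn3 (1.51) and the peroxidase Mpo (1.05), and the sum of all 9 was 21862 to 27590 FPKM in knockout libraries and 11338 to 20363 FPKM in wild-type libraries. All 9 had a positive log2 change, and 7 were higher without overlap, beside 14.7% of all genes. Il1r2, Anxa1, Lcn2, Cebpb and Cebpd are known from myeloid cells. Of 7 macrophage markers Csf1r fell (-0.68), with sums of 266 to 370 FPKM in knockout libraries and 333 to 393 FPKM in wild-type libraries. Among the 7, 2 log2 changes were positive and 5 negative. Cd163, also on the induced list, had 14.4 ± 1.93 FPKM in knockout bone and 7.36 ± 2.02 FPKM in wild-type bone. Its libraries did not overlap, and it did not pass (log2 change 0.91, limma adjusted p = 0.0552). It was called with limma array weights and with the exon length trend removed. Of 8 B cell markers Vpreb1 (-2.32) and Igll1 (-2.06) fell, with sums of 190 to 350 FPKM in knockout libraries and 271 to 334 FPKM in wild-type libraries. None of the 5 tested T and NK cell markers (81.5 to 121 FPKM in knockout libraries, 45.1 to 71.5 FPKM in wild-type libraries) or the 6 erythroid markers (1776 to 1966 FPKM in knockout libraries, 1596 to 2356 FPKM in wild-type libraries) passed in limma, and 1 and 0 of them had an unadjusted p under 0.05. The T and NK cell sums did not overlap, though of the 5 genes 2 had a positive and 3 a negative log2 change (median -0.06). Nkg7 alone had 86.3 ± 22.3 FPKM in knockout bone and 46.1 ± 9.75 FPKM in wild-type bone (SD, n = 3 each). Nkg7 was called higher with limma array weights, scaled to TPM and with the exon length trend removed, but not with voom on recovered reads. No erythroid marker was called under any of the 18 alternative settings. Without 1 library or another, calls ran from 3 to 6 for adipocyte, 3 to 8 for chondrocyte, 1 to 4 for osteoblast and osteocyte, 0 to 2 for skeletal muscle, 0 to 2 for neutrophil, 2 to 3 for stromal and fibroblast, 0 to 2 for B cell, 0 to 1 for endothelial and osteoclast, and 0 for macrophage markers. Matn3, a chondrocyte marker, was at 0 in knockout replicate 3. No marker of these 12 lists was at 0 in all libraries, and the part of any cell type in the differences of the 10 genes was not tested.

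**Figure D5:**
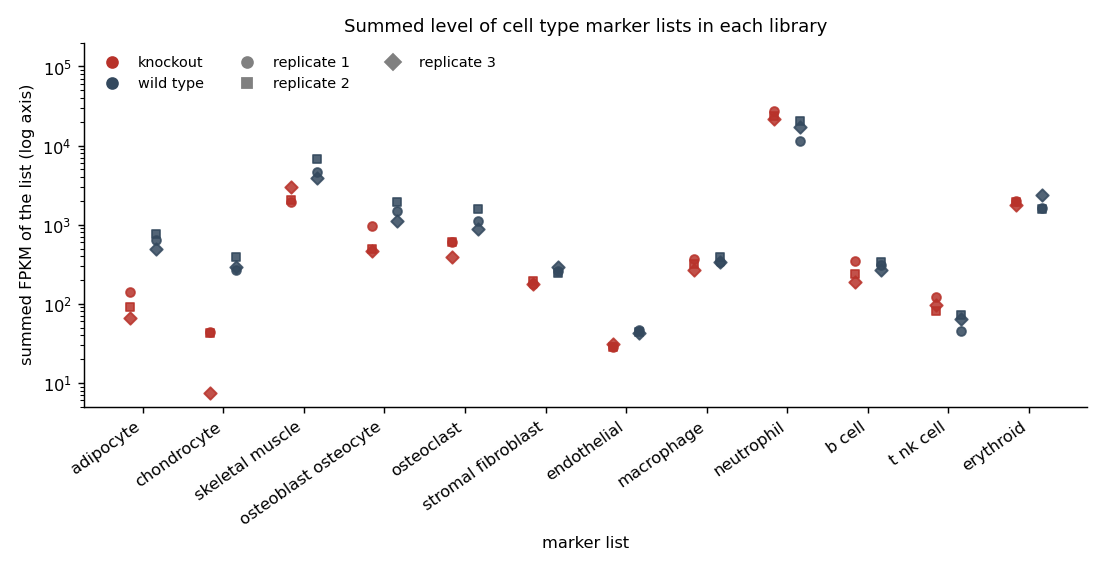
Summed FPKM of 12 cell type marker lists in each library on a log axis, knockout (red) left of wild type (dark) for each list, with symbols for the replicate number. Adipocyte and chondrocyte sums are lower in every knockout library than in any wild-type library, neutrophil sums are higher, and erythroid and B cell sums overlap.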

How the data were processed

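Bone total RNA from 3 knockout and 3 wild-type libraries was sequenced. Values came as FPKM for each gene, as deposited, and the submitters' processing notes name Bowtie 0.12.2 and mm10. No source used here names the counting step. Of 54532 genes, 54495 matched GENCODE M21, which gave symbols and exon lengths. FPKM times exon length gave whole reads for 96.9% of the 29600 genes above 0 (within 0.01 reads), which showed the depth. FPKM is not a count, so log2(FPKM + 1) was tested with limma 3.58.1 (R 4.3.3) with an intensity trend, over the 13619 genes with a mean of at least 1 FPKM. P-values were Benjamini-Hochberg adjusted, with a threshold of 0.05. A pseudocount of 1 understates changes of low genes. The procedure was tested on simulated data.

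The 10 genes and all lists were chosen with earlier results of these data known. The rule for named genes took, from each pathway list, those past the threshold and up to 3 of the most abundant others, from each marker list up to 3 with the smallest p, and the 3 genes most like Hsd11b1 and Fkbp5 each. Genes named outside it are marked as such. Alternatives changed the pseudocount, filter, scaling, trend, weights, block and libraries. Counts of lists other than the induced one under the alternatives were added after seeing the data.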

Additional observations from a re-analysis of the deposited data

How the results depend on the processing

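The count of genes past the threshold, 703 (183 higher, 520 lower), was 143 with no filter on low values, 365 at a mean FPKM of at least 5, 1207 with the exon length trend removed, 3354 (1551 higher, 1803 lower) with limma array weights, 239 without both libraries that stood apart, and 62 to 418 when each replicate was left out in turn. It was 782 with voom on the recovered reads. The 2 calls among the 10 genes became 1 with no filter, 3 with the length trend removed (Ddit4 added) and 5 with array weights (Pdk4, Ddit4 and Cebpd added). They became 0 without both libraries that stood apart, and 0 to 1 with a replicate left out. Hsd11b1 was called under 9 of 18 alternatives and lost its call when any 1 library was left out. Fkbp5 was called under 13 of 18. The 5 calls of the induced list became 1 with no filter, 3 at a mean FPKM of at least 5, 10 with the length trend removed, 14 with array weights, and 1 to 5 with a replicate left out. The cause of these shifts was not tested, except that leaving out libraries leaves fewer samples.

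With a replicate block the counts were 127 genes, 0 of the 10, 2 of the induced list, and 0 each of the repressed, bone, skeletal muscle, neutrophil and endothelial lists. Same-numbered libraries correlated at -0.49, -0.27 and 0.16 in their deviations across genes. These deviations are taken from the mean of each genotype and partly follow exon length. The correlations therefore cannot show whether same-numbered libraries share a batch or a pairing, which was not tested. Hsd11b1, Fkbp5, Pdk4, Ddit4 and Cebpd kept a positive and Sgk1 a negative difference under all 18 alternatives. Depth limits Zbtb16 most, with 82 reads in its shallowest library.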
